A study of Mus musculus with 11 samples.

Results

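The 10 core enzymes of glycolysis, from hexokinase to lactate dehydrogenase, were followed in sorted mouse short-term haematopoietic stem cells (ST-HSCs). They were found in the raw count table by the symbols of their Ensembl gene IDs, as 10 of the 53700 genes listed: Hk1, Hk2, Gpi1, Pfkl, Aldoa, Tpi1, Pgk1, Eno1, Pkm and Ldha. All 10 were among the 16639 genes with enough reads to be tested, and the lowest count of any of them in a library was 233 (Hk2). The cells came from the bone marrow of C57BL/6j hosts that had been transplanted with a Flt3-ITD leukaemia lacking Tet2, and this holds for every group. WT hosts (titles Cre_neg) kept Cxcl12, a chemokine of the marrow niche, and KO hosts (titles Cre_pos) had it deleted. Hosts received vehicle or the combination of cytarabine, doxorubicin and quizartinib, an inhibitor of the FLT3 kinase. Vehicle was given to the hosts of 3 WT libraries (numbered 240, 253 and 265 in the titles) and 2 KO libraries (249, 275). Treatment was given to those of 3 WT libraries (252, 262, 266) and 3 KO libraries (257, 263, 276). The age of the hosts, the Cre driver and the dosing times are not given in the sources used here, and Cre itself cannot be told apart from the deletion. Whether each library came from a separate animal is not stated, and the tests then cover no more than the spread between these libraries, which may be technical.

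Glycolysis breaks glucose down to pyruvate in the cytosol. Hexokinases (Hk1, Hk2) trap glucose as its phosphate, Gpi1 rearranges it, and phosphofructokinase (Pfkl is the liver-type subunit) commits the sugar to the pathway. Aldolase A (Aldoa) splits it, Tpi1 interconverts the products, and Pgk1, Eno1 and the pyruvate kinase gene Pkm carry the later steps, where ATP is recovered. Lactate dehydrogenase A (Ldha) turns pyruvate into lactate. Quiescent blood stem cells are known for relying on glycolysis, and several of the enzymes are known targets of the hypoxia-inducible factor HIF-1.

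Gene counts ran from 8129032 (WT vehicle 265) to 31061919 (WT treated 252) per library. Reads outside genes made up 5.98% (KO treated 276) to 30.4% (KO treated 257) of all reads, and mitochondrial genes 2.86% to 27.4% of gene counts. The stem and progenitor marker Kit, a receptor used in sorting such cells, was at 73.9 to 102 CPM (CPM are counts scaled to a common library total with edgeR's TMM factors) in WT vehicle and 159 and 167 CPM in KO vehicle libraries. It was at 50.7, 37.7 and 20.5 CPM in WT treated libraries and at 20.5, 243 and 210 CPM in KO treated 257, 263 and 276. Ly6a (Sca-1) and Cd48 of the same list had another order. Ly6a was at 433, 128 and 70.0 CPM in WT treated and 159, 64.2 and 29.7 CPM in KO treated libraries. Cd48 was at 600, 900 and 658 against 578, 286 and 191 CPM. Of the 15 stem and progenitor markers, 11 were positive and 4 negative between the treated niches, where 53.9% of all genes were positive. Their median log2 fold change was 0.58, against 0.10 over all genes. At an unadjusted p under 0.05, 2 were higher (Kit and Mllt3) and 1 lower (Cd48). The shares over all genes were 7.13% and 3.50%. After treatment in the WT niche 3 were higher and 0 lower, against 10.1% and 8.11% of all genes. In both comparisons 0 were past the adjusted threshold. For each library, Spearman's rho across genes was taken between transcript length and a gene's log2 CPM less its own mean over the 11 libraries. This rho, given as a description, was -0.40 to -0.29 in WT treated libraries and -0.22 in KO treated 257, against 0.02 to 0.36 in the other 7. Its sign is relative to the other libraries. All 17 granulocyte markers had counts in every library, with summed levels of 39921 to 104626 CPM in WT vehicle, 40728 to 64854 in KO vehicle, 32012 to 167308 in WT treated and 11403 to 35801 in KO treated libraries. The summed levels of the 18 erythroid markers were 85.6 to 1312, 720 to 18537, 574 to 838 and 23410.2 to 112807 CPM in the same order. Of those, Sptb and Epb42, both of the red-cell membrane skeleton, were at 0 in 2 and 1 WT libraries, and both had counts in all KO libraries. The part of these other cells in the glycolytic values was not tested. In such bulk samples, fewer cells of a type and less RNA per cell cannot be told apart.

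Some members share sequence with other genes, among them retrocopies and pseudogenes. A read that lies wholly within a shared stretch cannot be placed. Gpi1 shared stretches with 122 genes, and Hk1 only with its antisense gene Hk1os. Of all 50-base stretches of the longest coding transcript, 72.2% in Eno1, 68.0% in Pgk1, 34.4% in Pkm and 25.3% in Gpi1 were also found in another gene of the reference, against 16.6% in Ldha, 13.5% in Aldoa, 7.51% in Tpi1, 2.55% in Hk1, 0.0543% in Pfkl and 0 in Hk2. The levels of Eno1 and Pgk1 are uncertain for that reason. Aldoa has 2 Ensembl IDs. The one used (ENSMUSG00000030695.17) had 8596 to 22187 counts per library and the other 0 to 54.

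The stretches before the gene starts are shown for Hk2, Pgk1 and Ldha. These members carry the letters of the HIF-1 site more than once in the 250 bases before a start. Windows of 250 bases before to 50 after each RefSeq start (build GRCm38.p6) were searched on both strands for ACGTG, the core of the hypoxia response element. Capitals mark each match (CACGT is the same site on the other strand), and CACGTG, the E-box bound by MYC and related factors, counts as a match on each strand. The 250 bases upstream of the start are printed 5′ to 3′ on the strand of the gene. Hk2 lies at chr6:82774455-82774704 (minus strand), Pgk1 at chrX:106186850-106187099 (plus strand) and Ldha at chr7:46845554-46845803 (plus strand).
Hk2: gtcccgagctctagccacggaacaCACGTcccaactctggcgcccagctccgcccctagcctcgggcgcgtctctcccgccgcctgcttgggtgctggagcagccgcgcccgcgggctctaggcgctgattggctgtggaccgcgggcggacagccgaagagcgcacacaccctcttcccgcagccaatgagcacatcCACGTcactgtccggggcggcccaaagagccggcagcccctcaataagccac
Pgk1: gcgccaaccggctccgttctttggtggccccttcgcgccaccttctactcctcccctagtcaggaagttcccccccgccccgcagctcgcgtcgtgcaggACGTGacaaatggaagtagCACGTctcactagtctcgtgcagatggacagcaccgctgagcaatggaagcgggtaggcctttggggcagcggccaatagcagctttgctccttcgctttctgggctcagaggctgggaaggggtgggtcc
Ldha: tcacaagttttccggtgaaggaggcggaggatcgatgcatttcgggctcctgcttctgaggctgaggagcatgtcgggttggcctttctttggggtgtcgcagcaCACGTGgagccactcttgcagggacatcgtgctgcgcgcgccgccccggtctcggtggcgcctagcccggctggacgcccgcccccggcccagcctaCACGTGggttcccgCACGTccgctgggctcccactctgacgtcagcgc
Hk2 had matches that begin at -226 and -52 from its start, Pgk1 at -150 and -131, and Ldha 5 matches, of which 4 come from a pair of CACGTG letters that begin at -145 and -48. Hk1 and Pkm, not printed, also had 2 matches in a window, but not both before the start. Theirs begin at 7 and 16 (Hk1) and at -75 and 8 (Pkm). In all, 6 of the 10 members (Hk1, Hk2, Aldoa, Pgk1, Pkm and Ldha) had ACGTG in at least 1 window, against 21.8% of the 27025 genes in the table, and 1 (Ldha) had CACGTG, against 8.09%. Genes with more windows had more chances to match. Hk1, Aldoa, Eno1, Pkm and Ldha had more than 1 window each, and the 27025 genes had 32851 windows in all. The windows of Gpi1, Pfkl, Tpi1 and Eno1 did not hold these letters. A match is a description of letters and no evidence of binding.

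Set per kilobase of the longest coding transcript, Ldha had the highest median level over the 11 libraries, at 684 CPM per kb (508 to 960). Eno1 (507), Aldoa (507), Pkm (380), Tpi1 (369) and Gpi1 (300) followed, and their ranges over libraries overlapped one another. Pgk1 was at 94.5 (68.2 to 120), below every value of the 6 genes before it. The ranks of Eno1 and Pgk1 are uncertain, as 72.2% and 68.0% of their 50-base stretches are shared with other genes. Pfkl was at 42.5, Hk1 at 22.4 and Hk2 at 7.14 CPM per kb, and each of these ranges overlapped the next. Across libraries, Hk1 and Hk2 varied most, with the highest library 6.09 and 5.71 times the lowest. Pgk1 (1.77-fold) and Ldha (1.89-fold) varied least.

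**Figure D1:**
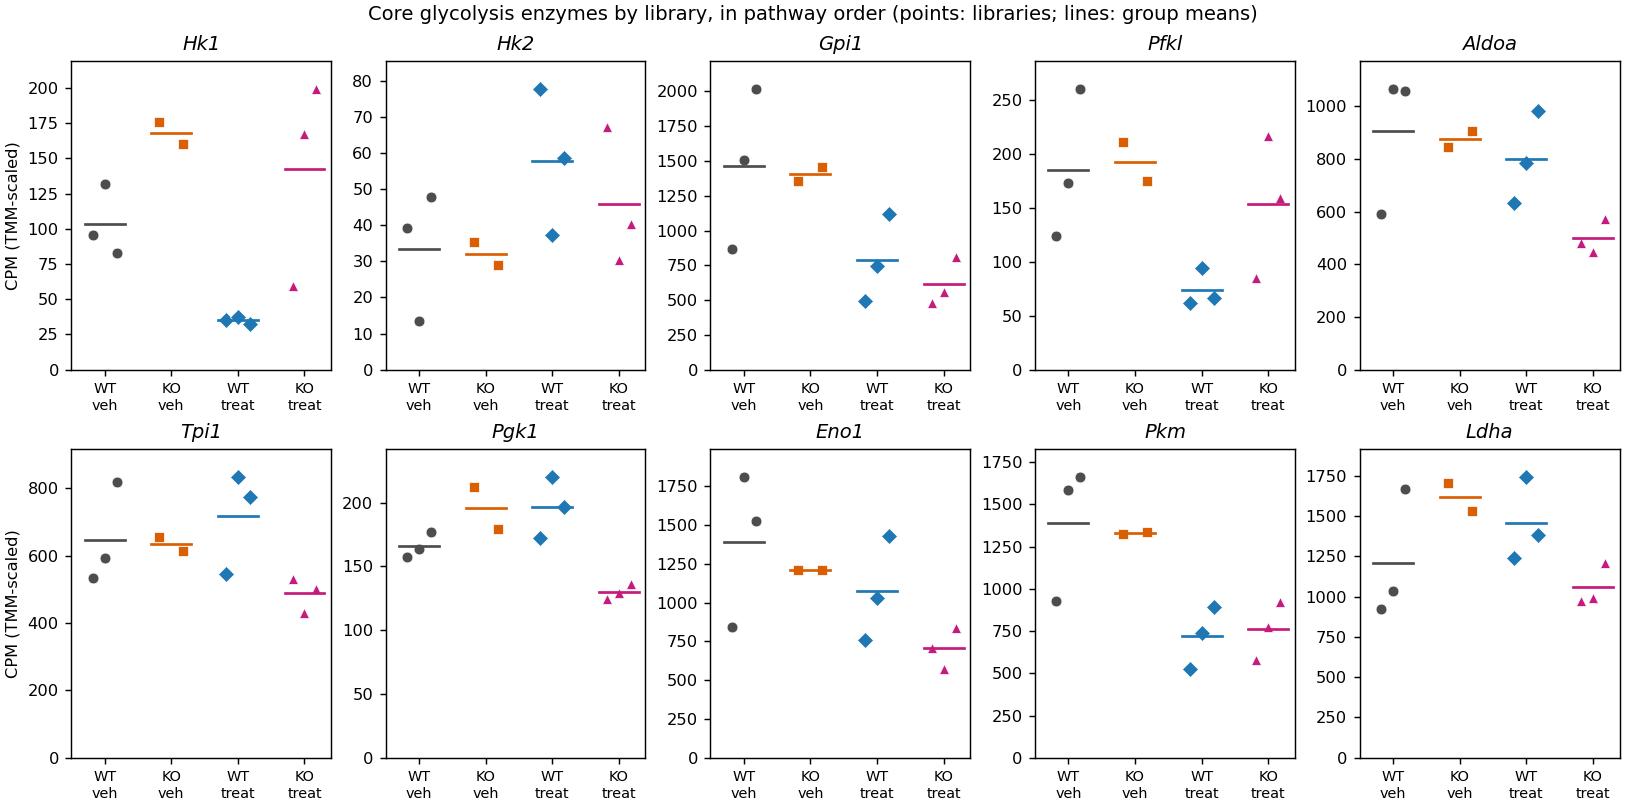
CPM (linear axis from 0) of each enzyme in pathway order, with 1 point per library and a line at the mean of each group (veh, vehicle; treat, treated). Hk1 sits at 32.7 to 37.4 CPM in the WT treated libraries, below all other libraries, while Pgk1 and Aldoa are lowest in the KO treated group.

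Hk1, the widely expressed hexokinase, separated the treated niches more than any other member. It stood at 95.8, 132 and 83.0 CPM in WT vehicle libraries 240, 253 and 265, and at 176 and 160 CPM in KO vehicle libraries 249 and 275. In WT treated libraries 252, 262 and 266 it was at 35.1, 37.4 and 32.7 CPM, and in KO treated libraries 257, 263 and 276 at 59.8, 168 and 199 CPM. The 3 WT treated libraries were the lowest of the 11, and KO treated 257 was the next lowest. Between the treated niches Hk1 had a log2 fold change of 2.02 ± 0.41 (SE, KO over WT), and its p of 0.000378 was the 9th smallest of all genes tested, with an edgeR adjusted p of 0.379. Within the WT niche, treated against vehicle, the log2 fold change was -1.56 ± 0.40 (adjusted p = 0.172). In vehicle hosts the 2 KO libraries were above the 3 WT libraries, with a log2 fold change of 0.70 ± 0.43 (adjusted p = 0.793), which was 0.14 with reads outside genes as a covariate. In the KO niche treated and vehicle libraries overlapped (-0.24 ± 0.44, adjusted p = 1). The difference between the treatment effects of the niches was 1.32 ± 0.60 (adjusted p = 0.767). These comparisons share groups, so they are not independent of one another.

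Whether Hk1 and Pfkl were called depended on the processing and on whether KO treated 257 was kept. Without 257, by edgeR, Hk1 passed the threshold between the treated niches (log2 fold change 2.38, adjusted p = 0.00757) and within the WT niche (-1.56, adjusted p = 0.0103). Over all genes 1513 and 1012 then passed in these comparisons, against 0 in each with all libraries. KO treated 257 is not among the libraries compared within the WT niche, and enters there only through the shared fit. Hk1 also passed between the treated niches with DESeq2, with limma voom and without the filter on low counts (adjusted p = 0.000838, 0.00164 and 0.0114), and over all 20 alternatives its adjusted p ran from 0.000838 to 1. Removing each library's trend with transcript length brought its log2 fold change to 1.37. Kit had the same order as Hk1 in part, low in the WT treated libraries and KO treated 257 and high in KO treated 263 and 276, while Ly6a and Cd48 ran the other way in 263 and 276. The part of these markers in the result was not tested.

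Hk2, the inducible hexokinase, passed no test in any comparison. It was at 39.4, 13.6 and 47.7 CPM in WT vehicle, 35.4 and 28.9 CPM in KO vehicle libraries, and after treatment at 77.7, 37.3 and 58.5 CPM in the WT niche and 67.1, 30.3 and 40.3 CPM in the KO niche, in the order named above. The groups overlapped in each comparison, and its log2 fold changes ran from -0.33 ± 0.48 (KO over WT, treated hosts) to 0.79 ± 0.49 (treated over vehicle, WT niche), with adjusted p of 0.879 and 0.405. The ratio of Hk1 to Hk2 CPM was 2.43, 9.69 and 1.74 in WT vehicle and 4.97 and 5.55 in KO vehicle libraries. It was 0.453, 1.002 and 0.559 in WT treated libraries, and 0.890, 5.53 and 4.94 in KO treated 257, 263 and 276. The WT treated libraries and KO treated 257 had about as many reads of Hk1 as of Hk2 or fewer, and the other 7 libraries had more of Hk1.

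Another hexokinase gene, Hk3, which is typical of myeloid cells, held the largest share per kilobase of the 3 in all 11 libraries, from 37.5% (KO treated 257) to 77.4% (WT vehicle 253). Hk1 held 15.7% to 20.01% in WT treated and 30.02% to 37.7% in KO treated libraries. Hk2 held 15.03% to 34.3% in WT treated and 4.72% to 29.1% in KO treated libraries, which overlapped, against 1.67% to 10.6% in WT vehicle and 3.13% to 4.32% in KO vehicle libraries. The 3 genes together stood at 41.1 to 48.8 CPM per kb in WT treated libraries and 41.8 in KO treated 257, against 67.2 to 167 in the other 7. The same 4 libraries had the negative trend with transcript length given above, and Hk1, Hk2 and Hk3 are long (4278, 5513 and 3219 bases). The part of that trend in the sums was not tested.

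**Figure D2:**
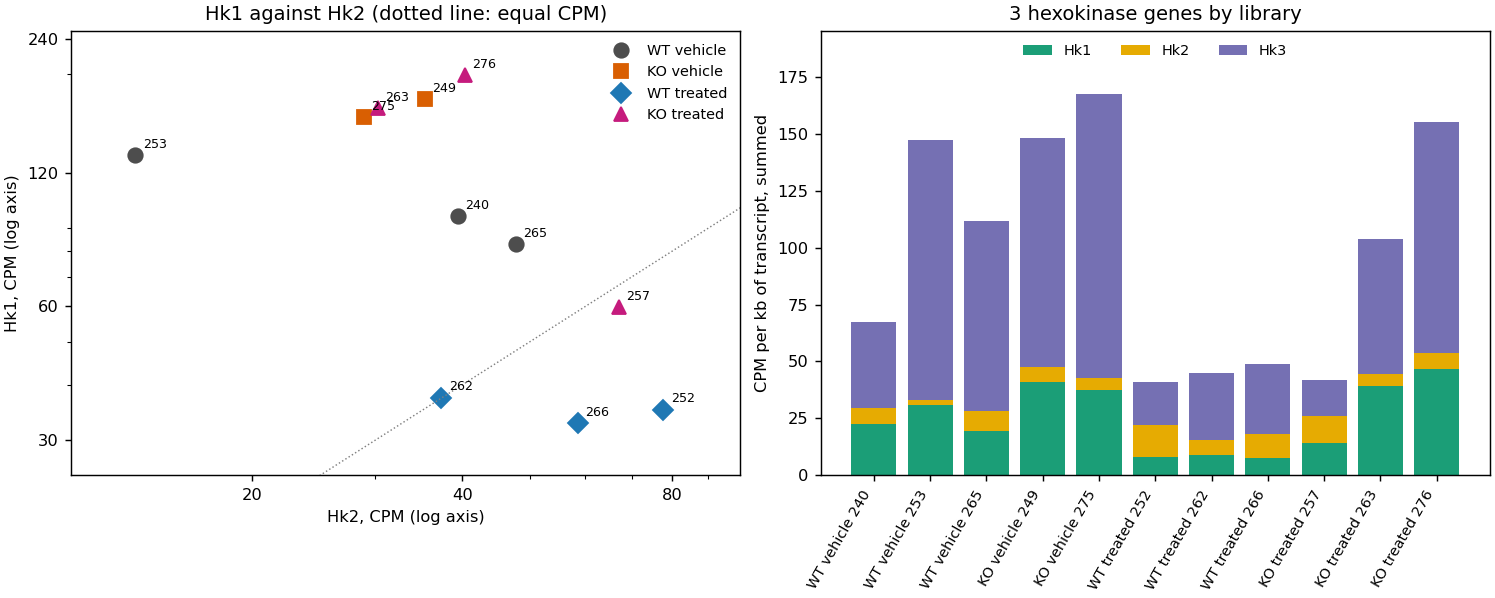
Left, CPM of Hk1 against Hk2 on log axes, 1 point per library with its number, and a dotted line at equal CPM; the WT treated libraries and KO treated 257 lie at or below that line. Right, stacked CPM per kb of Hk1, Hk2 and Hk3 in each library; the WT treated libraries and KO treated 257 have the lowest sums, at 41.1 to 48.8 CPM per kb.

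Pfkl, a subunit of the committing enzyme, had the next largest difference between the treated niches. It was at 123, 173 and 260 CPM in WT vehicle, 211 and 174 CPM in KO vehicle libraries, then 61.8, 94.5 and 66.0 CPM in WT treated and 85.2, 216 and 158 CPM in KO treated libraries. The WT treated libraries lay below all vehicle libraries, and KO treated 257 (85.2) lay within their range. Its log2 fold change was 1.05 ± 0.39 between the treated niches (adjusted p = 0.434) and -1.32 ± 0.39 within the WT niche (adjusted p = 0.177). Without KO treated 257 both passed (1.33 and -1.32, adjusted p = 0.0347 and 0.0372), as the first did with limma voom (adjusted p = 0.00471) and the second with DESeq2 (0.0300). With the length trend removed the first was 0.52, and without WT vehicle 253 and 265 the second was -0.62. Pfkl held 41.8% to 53.5% of the CPM per kb of Pfkl, Pfkm and Pfkp in WT treated libraries and 49.6% to 65.9% in KO treated libraries, and those ranges overlapped.

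Gpi1, between these steps, had its lowest levels in treated libraries. It was at 865, 1506 and 2016 CPM in WT vehicle, 1357 and 1457 CPM in KO vehicle libraries, and after treatment at 491, 748 and 1116 CPM in the WT niche and 481, 561 and 807 CPM in the KO niche. In the KO niche no treated library reached a vehicle library, with a log2 fold change of -1.19 ± 0.45 (adjusted p = 1). In the WT niche the groups overlapped through WT vehicle 240, and the log2 fold change was -0.90 ± 0.41 (adjusted p = 0.271). It was -0.59 without WT vehicle 265 and -0.01 without 253 and 265; the difference rests on those libraries.

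Aldolase A, Pgk1 and Tpi1 had another order of groups, with the KO treated libraries at the bottom. Aldoa was at 593, 1066 and 1059 CPM in WT vehicle, 845 and 908 CPM in KO vehicle libraries. After treatment it was at 631, 785 and 984 CPM in the WT niche and 480, 446 and 572 CPM in the KO niche. All 3 KO treated libraries were below each of the other 8. The log2 fold change was -0.68 ± 0.32 between the treated niches (adjusted p = 0.480) and -0.81 ± 0.35 between treated and vehicle in the KO niche (adjusted p = 1).

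Pgk1, which makes the first ATP of the pathway, varied least across the libraries. It was at 157, 163 and 177 CPM in WT vehicle, 212 and 179 CPM in KO vehicle libraries, and after treatment at 172, 220 and 196 CPM in the WT niche and 125, 129 and 136 CPM in the KO niche. The KO treated libraries were again below all others, and KO treated 257 did not stand apart from 263 and 276. Its log2 fold change was -0.60 ± 0.24 between the treated niches (adjusted p = 0.438) and -0.59 ± 0.27 after treatment in the KO niche (adjusted p = 1). The difference between the treatment effects of the niches was -0.83 ± 0.36 (adjusted p = 0.767). In vehicle hosts the KO libraries were above the WT libraries, with a log2 fold change of 0.24 ± 0.27 (adjusted p = 0.926), which was 0.11 without KO vehicle 249, 0.38 without KO vehicle 275 and -0.095 with the length trend removed.

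Tpi1 was at 533, 592 and 817 CPM in WT vehicle, 656 and 613 CPM in KO vehicle libraries, and after treatment at 546, 832 and 772 CPM in the WT niche and 531, 429 and 502 CPM in the KO niche. The KO treated libraries were the lowest here too, with 257 at 531 just under WT vehicle 240 at 533. The log2 fold change was -0.56 ± 0.29 between the treated niches (adjusted p = 0.534) and -0.38 ± 0.32 after treatment in the KO niche (adjusted p = 1). Eno1, which makes phosphoenolpyruvate, was at 840, 1807 and 1526 CPM in WT vehicle, 1207 in each KO vehicle library, and after treatment at 760, 1029 and 1431 CPM in the WT niche and 704, 571 and 838 CPM in the KO niche. In the KO niche its treated libraries were below the vehicle ones (-0.78 ± 0.40, adjusted p = 1), and between the treated niches the groups overlapped.

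Pkm, the last step to pyruvate, had lower levels in treated than in vehicle libraries of both niches, without passing the test in either. It was at 925, 1588 and 1661 CPM in WT vehicle and 1325 and 1337 CPM in KO vehicle libraries, and at 526, 738 and 890 CPM in WT treated and 579, 776 and 925 CPM in KO treated libraries. The log2 fold change was -0.95 ± 0.35 in the WT niche (adjusted p = 0.203) and -0.81 ± 0.38 in the KO niche (adjusted p = 1), with no overlap between treated and vehicle libraries in either. Without WT vehicle 253 and 265 the first was -0.24. Between the treated niches Pkm differed least of the members (0.08 ± 0.34, adjusted p = 0.970). Counts per gene do not tell its M1 and M2 splice forms apart.

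Ldha, at the exit to lactate, overlapped between treated and vehicle libraries of the WT niche. It was at 921, 1035 and 1668 CPM in WT vehicle, 1709 and 1534 CPM in KO vehicle libraries, and after treatment at 1241, 1742 and 1384 CPM in the WT niche and 975, 993 and 1209 CPM in the KO niche. KO treated libraries were below those of WT treated (-0.46 ± 0.32, adjusted p = 0.666) and of KO vehicle (-0.62 ± 0.36, adjusted p = 1). The ratio of Ldha to Pkm CPM was 0.652 to 1.004 in WT vehicle and 1.15 and 1.29 in KO vehicle libraries. It was 2.36, 2.36 and 1.56 in WT treated and 1.68, 1.28 and 1.31 in KO treated libraries. In the WT niche the ratio was thus higher in every treated than in every vehicle library. Such ratios were not taken over all genes. Pkm is longer than Ldha (2432 and 1815 bases), and the part of the trend with transcript length in the ratio was not tested. Ldha held 91.7% to 98.8% of the CPM per kb of Ldha and Ldhb in all libraries.

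**Figure D3:**
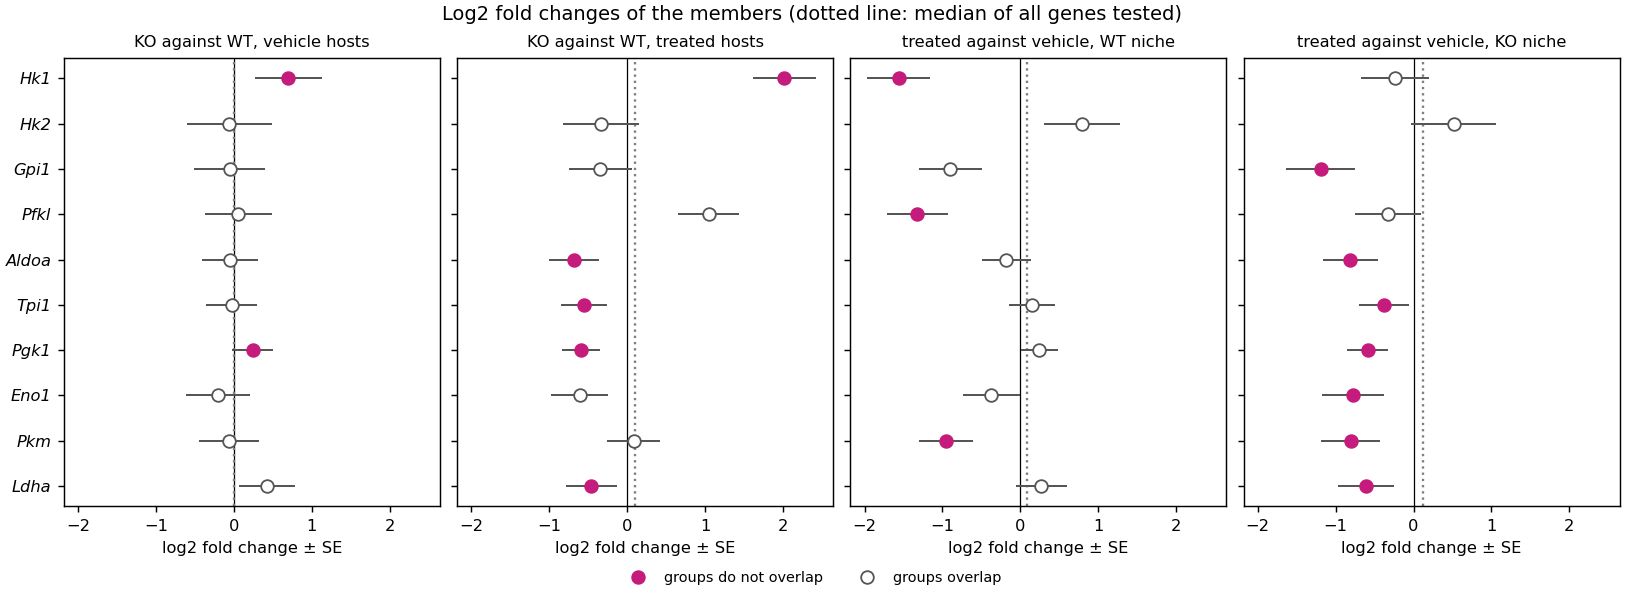
Log2 fold change (points) with its SE (bars) of each member in 4 comparisons; filled points mark members whose groups of libraries do not overlap, and the dotted line is the median of all genes tested. In treated hosts Hk1 and Pfkl lie to the right at 2.02 and 1.05 while Aldoa, Tpi1, Pgk1 and Ldha lie at -0.68 to -0.46.

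Between the treated niches 3 members were positive and 7 negative, with a median log2 fold change of -0.40, against 0.10 over all genes, of which 53.9% were positive. By edgeR's quasi-likelihood test 0 of the 10 were called at an adjusted p under 0.05 (background 0% of 16639 genes, smallest adjusted p 0.379). At an unadjusted p under 0.05 there were 3 (Hk1 and Pfkl higher, Pgk1 lower), against 10.6% of all genes (7.13% higher and 3.50% lower). DESeq2 called 1, against 1.36% of all genes, and limma voom 7 (2 higher, 5 lower), against 26.3%. Without overlap between the libraries stood 5 members, against 19.3% of all genes: Hk1 was higher (9.71% of all genes) and Aldoa, Tpi1, Pgk1 and Ldha were lower (9.56%). With the length trend removed the 4 lower members came to -0.21, -0.14, -0.30 and -0.14 and the median of the 10 to -0.18.

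In vehicle hosts 4 members were positive and 6 negative, with a median of -0.04 against 0 over all genes, of which 48.7% were positive. EdgeR called 0 of 10 (background 0%), none had an unadjusted p under 0.05 (6.78% of all genes, 4.80% higher and 1.98% lower), and neither DESeq2 (1.24% of all genes) nor limma voom (0%) called any. Only Hk1 and Pgk1 had groups without overlap, against 20.7% of all genes, and both were higher (13.2% of all genes were higher and 7.47% lower in this way). The median was 0.27 without WT vehicle 265 and 0.66 without 253 and 265.

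After treatment in the WT niche, 4 members were positive (Hk2, Tpi1, Pgk1 and Ldha) and 6 negative, with a median of -0.28 against 0.09 over all genes, of which 52.6% were positive. EdgeR called 0 of 10 (background 0%), DESeq2 2 (Hk1 and Pfkl, both lower; 6.42% of all genes) and limma voom 0 (0%). At an unadjusted p under 0.05 there were 4, all lower (Hk1, Gpi1, Pfkl and Pkm), against 18.2% of all genes (10.1% higher, 8.11% lower). Hk1, Pfkl and Pkm, all lower, had groups without overlap, against 27.7% of all genes (17.5% higher, 10.1% lower). The median turned to 0.46 without WT vehicle 253 and 265, and it was -0.52 without WT vehicle 240 and -0.09 without 253.

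After treatment in the KO niche, 9 of the 10 members were negative, all but Hk2, with a median of -0.60 against 0.12 over all genes, of which 56.1% were positive. Treated and vehicle libraries did not overlap for 7 members, all lower (Gpi1, Aldoa, Tpi1, Pgk1, Eno1, Pkm and Ldha), against 22.4% of all genes (12.3% higher, 10.1% lower). At an unadjusted p under 0.05 there were 3 (Gpi1, Aldoa and Pgk1), all lower, against 3.68% of all genes (2.70% higher, 0.974% lower). EdgeR called 0 of 10 (background 0%), as did DESeq2 (0.138%) and limma voom (0%), and the vehicle group held only 2 libraries. The median stayed between -0.74 and -0.52 when any 1 library was left out. For the difference between the niches' treatment effects, edgeR called 0 of 10 (background 0%) and 2 had an unadjusted p under 0.05 (Hk1 positive, Pgk1 negative), against 6.31% of all genes (3.04% positive, 3.27% negative). For that difference 3 members were positive, where 53.6% of all genes were.

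**Figure D4:**
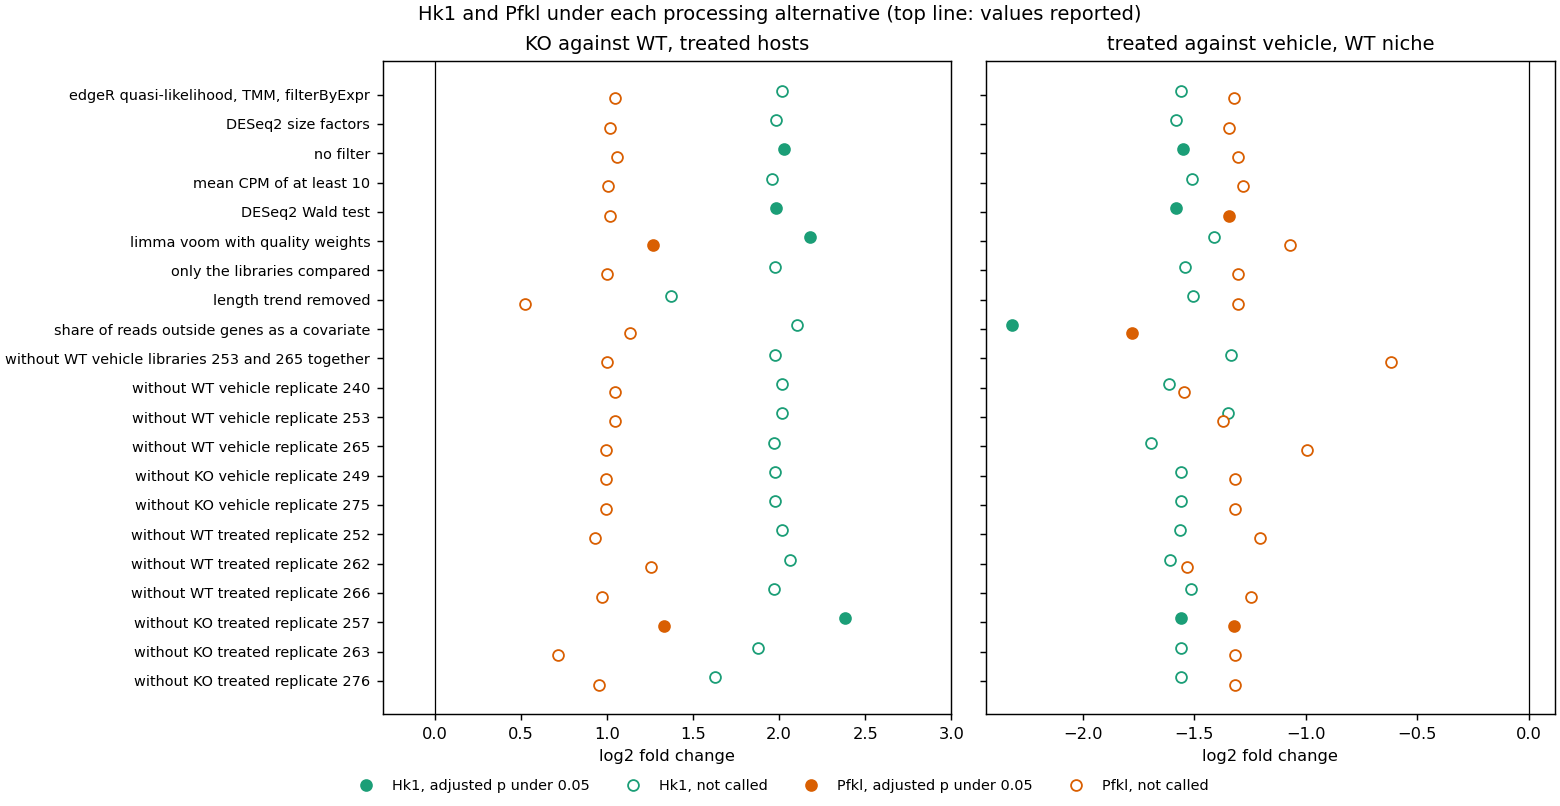
Log2 fold change of Hk1 and Pfkl between the treated niches (left) and between treated and vehicle libraries of the WT niche (right) under each processing alternative, with the reported value on the top line; filled points have an adjusted p under 0.05. Hk1 stays above 0 on the left (1.37 to 2.38) and below 0 on the right (-2.32 to -1.33).

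Gapdh and Pgam1 complete the pathway, and neither passed the test. Gapdh, which carries the step between Tpi1 and Pgk1, was at 2292 CPM ± 252 (SD, n = 3) in WT treated and 1312 CPM ± 250 (n = 3) in KO treated libraries, a log2 fold change of -0.81 ± 0.35 (adjusted p = 0.453). Pgam1, between Pgk1 and Eno1, had a log2 fold change after treatment in the KO niche of -0.97 ± 0.35 (adjusted p = 1). Of the 12 tested genes for other isozymes and steps, 2 were higher and 2 lower between the treated niches at an unadjusted p under 0.05, against 7.13% and 3.50% of all genes, and 0 passed over all genes. The other named ones were the muscle phosphofructokinase Pfkm (1.54 ± 0.64) and Ldhb (-1.14 ± 0.51). In the WT niche, treated against vehicle, Hk3 was the only one of them at that p (-1.58 ± 0.58, adjusted p = 0.208).

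Of 9 tested glucose and lactate transporter genes, 3 were higher and 0 lower with the KO niche in treated hosts at an unadjusted p under 0.05 (7.13% and 3.50% of all genes), with a median of 0.95 against 0.10 over all genes. After treatment in the WT niche 3 were lower and 0 higher (8.11% and 10.1% of all genes), with a median of -0.84 against 0.09. Again 0 passed over all genes. The lactate carrier Slc16a1 had a log2 fold change of 2.0 ± 0.69 and the glucose carrier Slc2a3 of 1.43 ± 0.58 between the treated niches. After treatment in the WT niche the glucose carriers Slc2a1 and Slc2a3 had values of -1.24 ± 0.44 and -1.42 ± 0.58. Slc2a3 was at 14.2, 9.97 and 17.5 CPM in WT treated libraries and at 9.84, 61.0 and 41.0 CPM in KO treated 257, 263 and 276. KO treated 263 and 276 were above the WT treated libraries and 257 was below them, whereas for Hk1 all 3 were above. For Slc16a1 the WT treated libraries were at 37.9, 52.7 and 43.0 CPM. KO treated 257 lay within that range at 39.5 CPM, and 263 and 276 were at 142 and 353 CPM.

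Of 14 genes for hypoxia and MYC regulators, 12 were positive between the treated niches, where 53.9% of all genes were, with a median of 0.42 against 0.10. At an unadjusted p under 0.05 there was 1 higher (7.13% of all genes), Arnt, the partner of HIF-1 alpha (1.95 ± 0.68). Arnt was at 9.81, 9.97 and 2.38 CPM in WT treated libraries and at 7.35, 32.7 and 45.6 CPM in KO treated 257, 263 and 276. KO treated 257 thus lay within the WT treated range. After treatment in the WT niche 11 of the 14 were negative, where 52.6% of all genes were positive, and 3 were lower at that p (8.11% of all genes): Arnt (-2.07 ± 0.68) and the oxygen sensors Egln2 and Egln1 (-1.04 ± 0.33 and -1.46 ± 0.50). Hypoxia targets outside glycolysis split, with 8 positive and 9 negative between the treated niches. Within the WT niche, treated against vehicle, Higd1a, a mitochondrial protein, was higher (1.51 ± 0.40) and Kdm3a and P4ha1, both known HIF-1 targets, were lower (-1.67 ± 0.49 and -1.34 ± 0.40). Of the 13 tested genes for pyruvate entry to mitochondria, 2 were higher and 2 lower after treatment in the WT niche at that p. The shares over all genes were 10.1% and 8.11%. The pyruvate carrier subunits Mpc1 and Mpc2 were higher (1.26 ± 0.46 and 1.37 ± 0.45), and Pdk2 was lower (-1.65 ± 0.56). Of the 8 pentose phosphate genes, 1 was higher (H6pd, 1.73 ± 0.54) and 1 lower (Taldo1, -0.89 ± 0.34) between the treated niches at that p, against 7.13% and 3.50% of all genes. None of these passed over all genes by edgeR. The part of the trend with transcript length in these values, and in those of the transporters, was not tested.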

How the data were processed

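The submitters' processing notes list STAR 2.7.9a, Trim Galore 0.6.7, HTSeq with the version 0.6.7, bcl2fastq and DESeq2 beside the build GRCm39, with no roles. Libraries were made with the SMARTer Ultra Low Input and Nextera XT kits, per the labels. The deposited table holds raw counts per Ensembl gene, not normalized by the authors. Its 5 summary lines were left out of library sizes and tests. Annotation release, strand setting and filters are not given in the sources used here. The kits do not mark strand, so reads of overlapping genes cannot be told apart, such as Hk1 and the antisense gene Hk1os.

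Symbols (52093 of 53700 genes) and transcript lengths came from GENCODE M21, and promoter windows from RefSeq (GRCm38.p6). In R 4.3.3, edgeR 4.0.16 kept 16639 genes with filterByExpr, scaled libraries with TMM and fitted 1 robust quasi-likelihood model with the 4 groups. P-values were Benjamini-Hochberg adjusted over all genes tested in each of 5 comparisons and called under 0.05. The SE was derived from the fold change and its F statistic (size over root of F). Counts carry no molecular identifiers. Depth was 8129032 to 31061919 gene counts.

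The members and lists were chosen with earlier results of these data known. All members are named with their values, and fold changes are given where a member's unadjusted p was under 0.05 or its groups did not overlap, and for Hk2, Pkm and Hk1 in some other comparisons, chosen after their values were seen. Unadjusted p-values are given as counts, except that of Hk1 between the treated niches. From the other lists, genes were named among the up to 3 per comparison with the smallest p under 0.05 and a mean log2 CPM of at least 1. Of 209 list names 207 matched the table. Alternatives were DESeq2 size factors, no filter, a mean CPM of at least 10, the DESeq2 1.42.0 Wald test, limma 3.58.1 voom with quality weights, only the libraries compared, the trend with transcript length removed (lowess, span 0.3), each library's percentage of reads outside genes as a model term, and leaving out libraries. The pipeline was tested on simulated counts.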

Additional observations from a re-analysis of the deposited data

How the results depend on the processing

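Of 418 recomputed values of the 21 member differences named, 400 kept their direction and stayed on the same side of the threshold, 17 kept their direction and passed it, and 1 changed sign: Pgk1 between the vehicle niches, at -0.095 with the length trend removed. The cause was not tested. Over all genes, between the treated niches 43 were called without the filter, 226 by DESeq2 (201 higher, 25 lower) and 4375 by limma voom. Between the vehicle niches 11 were called without the filter and 206 by DESeq2. For treated against vehicle in the WT niche 215 were called without the filter, 1069 by DESeq2 and 2100 when reads outside genes entered as a covariate. DESeq2 called 23 in the KO niche and 58 for the difference between the niches' treatment effects. Between the treated niches, members called were 1 without the filter, 1 by DESeq2 (1.36% of all genes) and 7 by limma voom (26.3%). In the WT niche they were 1 without the filter, 2 by DESeq2 (6.42% of all genes) and 2 with the covariate (2100 of 16639 genes). Without the filter, the 43 and 215 genes called in these comparisons came from a larger number tested. The members' median log2 fold change between the vehicle niches was -0.41 with the length trend removed and 0.66 without WT vehicle 253 and 265. In the WT niche it was -1.03 and 0.46, and for the difference between treatment effects 0.17 and -1.002, in the same order. Leaving out 1 library gave 0 to 1513 genes and 0 to 2 members between the treated niches (most without KO treated 257), 0 to 85 genes between the vehicle niches (most without WT vehicle 240), 0 to 1012 genes and 0 to 2 members in the WT niche (most without KO treated 257) and 0 to 1 gene for the difference between treatment effects. The medians then ran from -0.16 to 0.27 between the vehicle niches, from -0.52 to -0.09 in the WT niche and from -0.65 to -0.20 for the difference. Where a vehicle group kept 1 library, its spread was taken from the other groups. No paired analysis was possible because the library numbers in the titles are not shared between groups.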

Other observations

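Bpgm, the enzyme that turns a glycolytic intermediate into the red-cell regulator of oxygen release, had its highest levels in libraries of the KO niche. It was at 17.1, 27.6 and 22.0 CPM in WT vehicle, 11.01 and 168 CPM in KO vehicle, 17.7, 21.0 and 15.3 CPM in WT treated and 126, 294 and 1387 CPM in KO treated libraries. The log2 fold change between the treated niches was 5.07 ± 1.04 (edgeR adjusted p = 0.379), and the 3 KO treated libraries and KO vehicle 275 were above all others. The same 4 libraries hold the highest summed erythroid markers, and the part of red-cell precursors in this value was not tested.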
